A study of Mus musculus with 40 samples.

Results

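Resident-type macrophage genes were followed through scar formation in the mouse heart. They are 7 genes that macrophages settled in healthy tissues are known to use: Mrc1, Cd163, Mgl2, F13a1, Lyve1, Cbr2 and Folr2. They were chosen by name, with earlier results of these data known, and all 7 are among the 11450 genes of the deposited expression table. Adult C57BL/6 mice had the left anterior descending coronary artery, which feeds most of the left ventricular wall, tied permanently, so every heart carried an infarct. From each heart, the injured region (the fibrotic scar) and an uninjured region remote from it were taken, 4 mice on each of days 3, 7, 14, 21 and 42, and each piece gave 1 bulk RNA library, 40 in all. No animal without ligation was part of the comparison, so the uninjured region is tissue of an infarcted heart. The question put to these genes was whether their messenger RNA differed between scar and remote muscle, and how that difference moved over 42 days.

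Values are RPKM, read counts scaled to gene length and library size. Within a day they are given in the same mouse order in both regions: A4, A5, A7 and A8 on day 3, A7, A9, A10 and A12 on day 7, A4, A5, A6 and A11 on day 14, A3, A4, A10 and A11 on day 21, and B1, B3, B9 and B12 on day 42. Each label stands for a different animal on each day. Mouse labels beginning with B occur on day 42 alone and those beginning with A on the other days, and the labels do not say what the letters mark. Whatever they mark cannot be told apart from the step to day 42. Differences are on the log2(RPKM + 1) scale, which understates the change of low genes, and carry their standard errors. They were tested with limma and Benjamini-Hochberg adjustment over the 11390 genes that passed the filter on low values, all 7 members among them. The whole reads worked back from the RPKM summed to 12123945 to 25091283 per injured library and 19958794 to 33596397 per uninjured library. These totals were a median of 0.772 times the library size behind the RPKM in injured and 1.31 times in uninjured libraries, so the deposited values carry a scaling between the regions beyond depth. With the reads scaled to their own totals instead, the median gene shifted upward in the injured region by 0.68, 0.59, 0.63, 0.66 and 0.60 on the log2 scale on the 5 days, and the share of calls that were higher rose to 78.8%, 76.7%, 79.4%, 79.6% and 81.0%, against 52.7%, 53.0%, 51.2%, 51.3% and 51.1% as deposited. In bulk tissue, fewer cells of a type and less RNA per cell cannot be told apart.

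Macrophages of the healthy heart settle early in life and largely renew themselves in place, whereas an infarct draws in monocytes from the blood that become macrophages in the wound. Resident-type cells are known for clearing debris and for scavenger and endocytic receptors on their surface. Several of the genes named here serve that work, and in other tissues they are used to tell such cells from recruited ones. None belongs to macrophages alone in every setting: Lyve1 is also a gene of lymphatic vessels, F13a1 of monocytes, megakaryocytes and platelets, and Mgl2 of some dendritic cells.

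The genes lie on 5 chromosomes in the GENCODE M21 annotation of the mm10 build (GRCm38), and each is annotated as protein-coding. Mrc1 spans chr2:14229392-14332057 on the plus strand in 29 merged exons, Cd163 chr6:124304656-124330527 on the plus strand in 16, and Mgl2 chr11:70130329-70137550 on the plus strand in 10. F13a1 spans chr13:36867178-37050244 on the minus strand in 18 merged exons, Lyve1 chr7:110850607-110863239 on the minus strand in 6, Cbr2 chr11:120729489-120732114 on the minus strand in 8, and Folr2 chr7:101839988-101857194 on the minus strand in 8. The gene length behind the RPKM equalled the merged exon length of that annotation, within 0.1%, for 6 of the 7, from 1327 bases for Cbr2 to 6371 for Mrc1. For F13a1 it was 3927 bases, against 6739 in the annotation, so the same reads would give a lower RPKM on the annotated length. Whether more reads would be counted on that length is not known.

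Some reads of these genes could fit elsewhere. Of the 2205 stretches of 50 bases in Mgl2 transcripts, 289 (13.1%) occur in another gene, 270 of them in its paralog Clec10a, and 160 of the 1323 stretches of Cbr2 (12.1%) occur in Gm11771. Mrc1, Lyve1 and Folr2 shared 0 stretches with any other gene, Cd163 shared 0.073% and F13a1 0.209%. Folr2 exons overlap 975 exon bases of the antisense gene Gm10602, and F13a1 exons overlap 74 of the antisense gene Gm30489. How the counting treated shared reads and strand is not given in the sources used here.

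The promoters of these genes are shown because their levels were followed together, and because macrophage genes are known to be read through PU.1, a transcription factor of the myeloid line, and through Maf factors, which are known in resident-type macrophages. RefSeq's promoter table (build GRCm38.p6) held 8 windows for 6 of the genes, and Lyve1 was not in it. In each window the 250 bases before the annotated start were searched on both strands for AGGAAGT (a PU.1 motif, ACTTCCT on the other strand) and for TGCTGA (a Maf motif, TCAGCA on the other strand). AGGAAGT was found in 4 windows of 4 genes, Mrc1, Mgl2, F13a1 and Folr2, against 7.686% of the 32851 windows of the same length in the table. TGCTGA was found in 2 windows, both of Folr2, against 16.079% of all windows. Below, 4 of the windows are printed 5′ to 3′ on the strand of the gene, with matches to either motif in capitals. The first is that of the member called higher in the scar on the most days, the second that of the member with the lowest scar levels, and the others those of the members with the smallest p over the days in the scar. The Cd163 window holds neither run of letters. F13a1 and Folr2 each have 2 windows, and the one printed is that with AGGAAGT. The printed F13a1 window lies inside the annotated span of the gene. Its other window, before the outermost start (chr13:37050245-37050494), holds neither run. The other Folr2 window (chr7:101845332-101845581) holds TGCTGA but not AGGAAGT. A match describes these letters and is not a measured binding site.
Mrc1 (chr2:14229164-14229413, plus strand): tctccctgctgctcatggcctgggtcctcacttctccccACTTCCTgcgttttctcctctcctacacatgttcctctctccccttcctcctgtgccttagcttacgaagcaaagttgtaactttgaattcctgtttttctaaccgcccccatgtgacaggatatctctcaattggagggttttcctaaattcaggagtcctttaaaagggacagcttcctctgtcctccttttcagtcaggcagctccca
Cd163 (chr6:124304401-124304650, plus strand): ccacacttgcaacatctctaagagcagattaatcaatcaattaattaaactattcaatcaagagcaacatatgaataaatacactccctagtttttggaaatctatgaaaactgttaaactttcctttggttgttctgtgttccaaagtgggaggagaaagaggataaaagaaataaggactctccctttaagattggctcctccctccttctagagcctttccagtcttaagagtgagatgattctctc
F13a1 (chr13:37049214-37049463, minus strand): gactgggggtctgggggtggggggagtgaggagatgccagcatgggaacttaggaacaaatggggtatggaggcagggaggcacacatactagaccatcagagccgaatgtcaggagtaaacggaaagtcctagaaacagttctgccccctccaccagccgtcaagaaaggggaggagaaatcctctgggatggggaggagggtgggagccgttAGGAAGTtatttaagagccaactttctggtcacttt
Folr2 (chr7:101857191-101857440, minus strand): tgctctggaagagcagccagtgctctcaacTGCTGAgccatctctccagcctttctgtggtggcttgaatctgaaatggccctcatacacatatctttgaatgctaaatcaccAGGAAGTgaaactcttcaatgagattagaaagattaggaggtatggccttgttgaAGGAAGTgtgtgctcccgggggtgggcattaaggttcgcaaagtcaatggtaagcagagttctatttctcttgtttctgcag

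Between the regions, 5 to 6 of the 7 genes were lower in the scar on days 3 to 21 and 4 on day 42. On day 3, 2 were higher (F13a1 and Mrc1) and 5 lower, where 83.7% of all genes tested were called, 44.1% as higher and 39.6% as lower. Day 7 had 0 higher and 6 lower with 82.2% of all genes called (43.6% higher, 38.7% lower), and Mrc1 was the gene not called. Day 14 had 1 higher (Mrc1) and 6 lower with 82.9% called (42.4% higher, 40.5% lower), and day 21 again had 1 higher (Mrc1) and 6 lower with 84% called (43.1% higher, 41% lower). Day 42 had 2 higher (Mrc1 and Mgl2) and 4 lower with 79.2% called (40.5% higher, 38.7% lower), and Lyve1 was the gene not called. The number called was therefore near what the table as a whole gave, while 4 to 6 of 7 lower stood beside 38.7% to 41% of all genes. The 7 genes were chosen with earlier results of these data known, so their counts and medians beside all genes are a description. The median log2 difference of the members was -1.41, -1.78, -2.06, -1.82 and -0.92 on the 5 days, against 0.06, 0.05, 0.03, 0.03 and 0.03 over all genes tested. Under the scaling to read totals, Folr2 on day 3 and Lyve1 on day 42 turned to values above 0 (0.17 and 0.50, both uncalled). That scaling also ended the limma calls of Folr2 on day 7, of Mgl2 on day 14 (-0.35, adjusted p = 0.0754) and day 21 (-0.035, 0.856), of Lyve1 on day 14 (-0.10, 0.691) and day 21 (-0.35, 0.167) and of F13a1 on day 42 (-0.22, 0.143). Mrc1 on day 7 was called with it, at 0.74 (limma adjusted p = 8.11e-06).

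**Figure D1:**
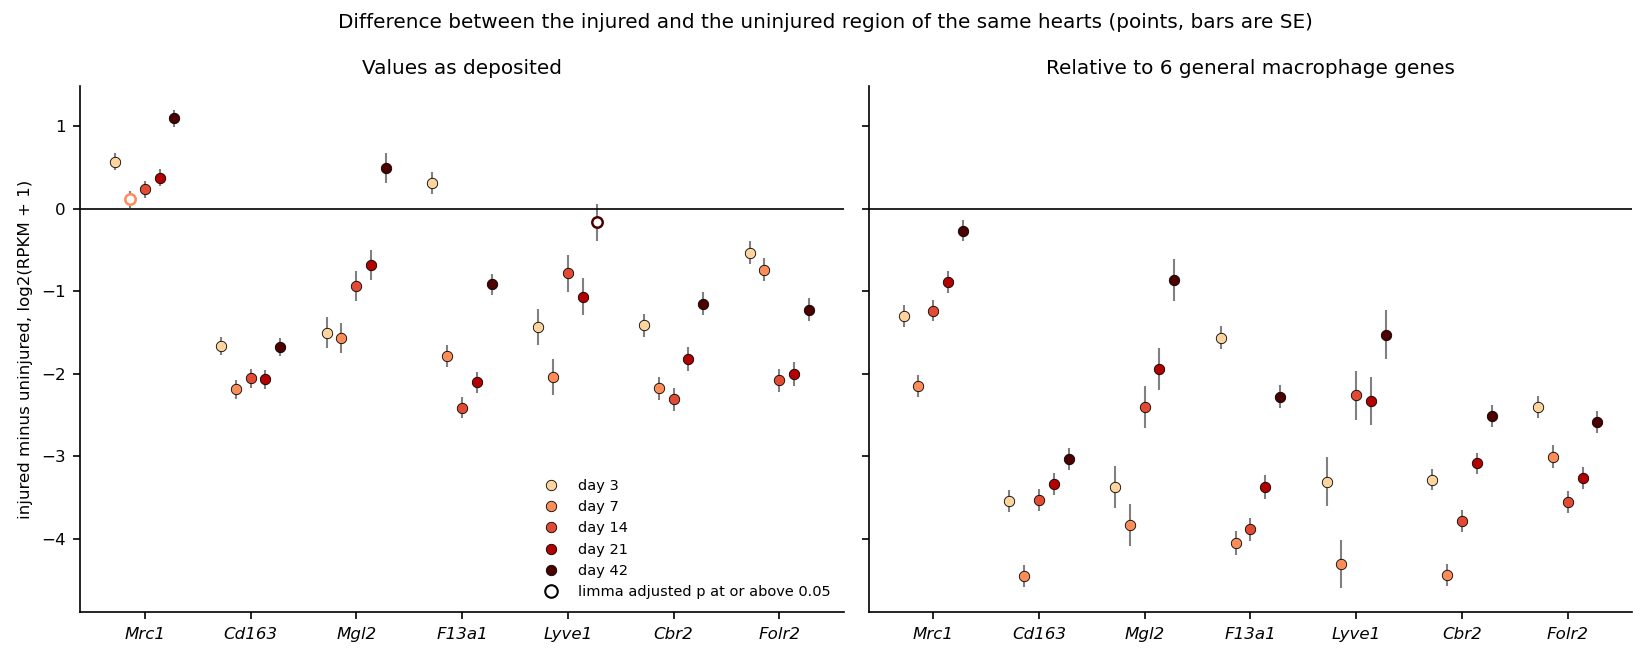
Log2 difference in RPKM + 1 between the injured and the uninjured region of the same hearts (vertical axis) for each of the 7 genes (horizontal axis), 1 point per day from day 3 (pale) to day 42 (dark), bars for the standard error and open points where limma did not call the gene; the left panel shows the values as deposited and the right panel the same after subtracting the mean of 6 general macrophage genes. In the left panel Cd163 stays between -2.19 and -1.67 and F13a1 goes from 0.31 on day 3 to -1.78 on day 7, and with reads scaled to their own totals Folr2 on day 3 and Lyve1 on day 42 would lie above 0; in the right panel all points lie below 0, from -4.45 for Cd163 on day 7 to -0.26 for Mrc1 on day 42, which quantile normalisation moves to 0.0074.

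Cd163, the scavenger receptor that takes up haemoglobin bound to haptoglobin, was lower in the scar in 20 of 20 mice. Scar libraries of Cd163 held 1.08, 1.0, 0.657 and 0.925 RPKM on day 3, 0.239, 0.218, 0.448 and 0.456 on day 7, and 0.339, 1.12, 0.758 and 0.536 on day 14. They held 0.811, 0.83, 1.64 and 0.578 RPKM on day 21 and 0.825, 1.37, 0.728 and 1.15 on day 42. Remote libraries of Cd163 held 5.92, 4.96, 4.45 and 4.99 RPKM on day 3, 4.19, 6.29, 4.77 and 5.31 on day 7, and 4.68, 7.98, 6.61 and 4.90 on day 14. They held 6.30, 5.69, 7.98 and 8.70 RPKM on day 21 and 5.74, 5.29, 5.30 and 5.18 on day 42. The groups did not overlap on any day: the highest scar library of the whole series held 1.64 RPKM and the lowest remote library 4.19 RPKM. Scar means were 18%, 6.62%, 11.4%, 13.4% and 18.9% of the remote means on days 3, 7, 14, 21 and 42. For Cd163 the limma difference was -1.67 ± 0.11 on day 3 (adjusted p = 8.16e-12), -2.19 ± 0.11 on day 7 (adjusted p = 9.76e-14) and -2.06 ± 0.11 on day 14 (adjusted p = 4.37e-13). It was -2.07 ± 0.11 on day 21 (adjusted p = 3.72e-13) and -1.67 ± 0.11 on day 42 (adjusted p = 1.42e-11). The scar values rest on 21 to 280 recovered reads per library, and those below 1 RPKM are compressed by the added 1. In the scar Cd163 fell between day 3 and day 7 by 0.52 on the log2 scale, with ± 0.15 and a limma adjusted p of 0.00605, and was not called in any later step as deposited. From day 7 to day 14 the difference was 0.32 ± 0.15 (adjusted p = 0.0947) in limma. It was called with a pseudocount of 0.1 RPKM (0.79, adjusted p = 0.0469) and without day 14 mouse A4 (0.42, adjusted p = 0.032). Its difference from day 21 to day 42 was 0.055 ± 0.15 (adjusted p = 0.816) by limma, the smallest of the 7 genes in that step. Haem and haemoglobin genes listed around it behaved otherwise: 6 of 8 tested were higher in the scar on day 3 and 1 lower, which was Cd163 itself, and Hmox1, the haem-degrading enzyme, differed by 4.56 ± 0.22. On day 42, 5 of the 8 were higher and 2 lower, with Lrp1, the receptor for haem bound to haemopexin, at 2.89 ± 0.16.

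Mrc1, the mannose receptor CD206 that takes up glycoproteins, had the highest remote-region level of the 7 genes after F13a1 and was the 1 member whose scar mean was above the remote mean on all 5 days. Scar libraries of Mrc1 held 30.8, 33.7, 24.9 and 32.9 RPKM on day 3, 21.0, 21.4, 29.2 and 18.4 on day 7, and 18.5, 19.7, 23.9 and 19.8 on day 14. They held 20.2, 28.3, 24.5 and 26.9 RPKM on day 21 and 38.7, 34.5, 36.2 and 41.6 on day 42. Remote libraries of Mrc1 held 20.9, 20.7, 21.3 and 17.5 RPKM on day 3, 20.2, 19.8, 20.4 and 21.0 on day 7, and 18.4, 16.8, 19.4 and 14.4 on day 14. They held 17.4, 17.1, 20.8 and 20.4 RPKM on day 21 and 18.4, 16.2, 15.3 and 18.7 on day 42. Scar libraries were higher in 19 of 20 mice, the exception being day 7 mouse A12, and the groups did not overlap on days 3 and 42 but did on days 7, 14 and 21. The scar held 152%, 111%, 119%, 132% and 220% of the remote mean over the 5 days. For Mrc1 the limma difference was 0.57 ± 0.10 on day 3 (adjusted p = 2.97e-05), 0.12 ± 0.10 on day 7 (adjusted p = 0.293) and 0.24 ± 0.10 on day 14 (adjusted p = 0.0379). It was 0.38 ± 0.10 on day 21 (adjusted p = 0.0021) and 1.10 ± 0.10 on day 42 (adjusted p = 3.63e-09). The day 14 call was lost without the mouse as a block (adjusted p = 0.0525) and without mouse A5 (0.0734), A6 (0.1) or A11 (0.184), all by limma. Over time in the scar, Mrc1 changed by -0.44 ± 0.13 (adjusted p = 0.00661) from day 3 to day 7 and by 0.58 ± 0.13 (adjusted p = 0.00296) from day 21 to day 42, again by limma. Its day 42 scar mean of 37.8 ± 3.08 RPKM (SD, n = 4) was the highest of its 10 groups, and the lowest library there stood above every other group's highest.

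**Figure D2:**
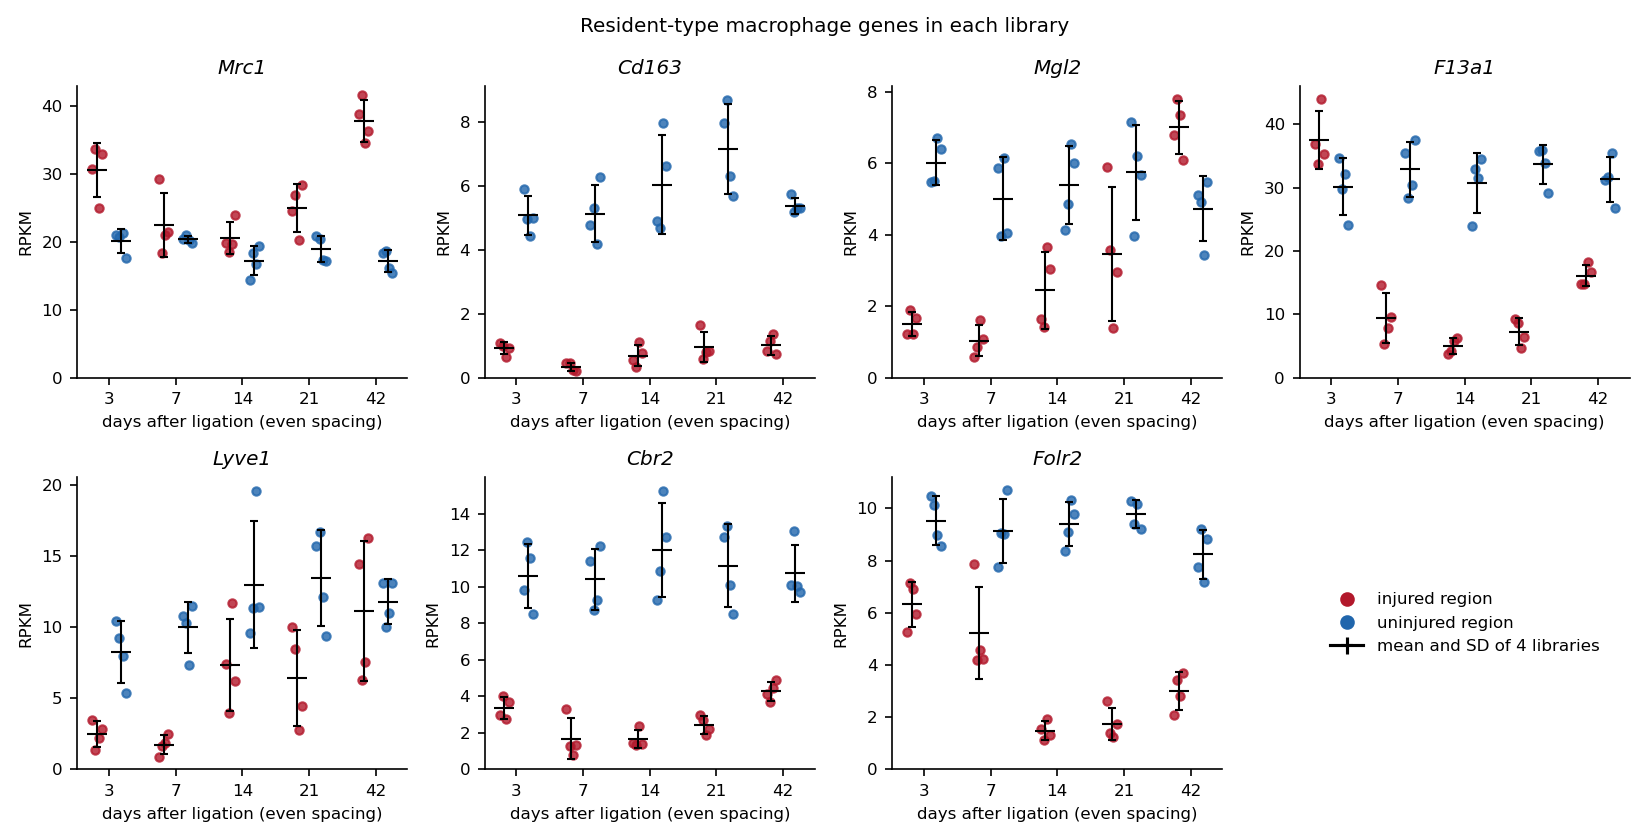
RPKM of each of the 7 genes (vertical axes, 1 panel per gene, from 0) by day after ligation (horizontal axis, evenly spaced), 1 point per library with injured left of uninjured, and bars for the mean and SD of 4 libraries. The scar values of F13a1 span 3.72 to 44.1 RPKM and those of Cd163 0.218 to 1.64 RPKM, while the remote values of Mrc1 stay between 14.4 and 21.3 RPKM.

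Mgl2, a galactose-binding lectin (CD301b) of macrophages and of some dendritic cells, changed side over the 42 days. Scar libraries of Mgl2 held 1.21, 1.90, 1.21 and 1.66 RPKM on day 3, 1.60, 1.08, 0.574 and 0.870 on day 7, and 1.43, 3.65, 3.05 and 1.64 on day 14. They held 1.40, 2.95, 5.91 and 3.56 RPKM on day 21 and 6.78, 7.34, 6.11 and 7.80 on day 42. Remote libraries of Mgl2 held 5.47, 5.51, 6.71 and 6.40 RPKM on day 3, 6.14, 4.04, 5.88 and 3.96 on day 7, and 4.87, 6.54, 6.00 and 4.15 on day 14. They held 6.19, 5.67, 7.16 and 3.97 RPKM on day 21 and 5.11, 3.42, 5.48 and 4.91 on day 42. The scar was lower in 16 of 20 mice, the groups overlapped on day 21 alone, and on day 42 every scar library lay above every remote one. Scar means were 24.8%, 20.6%, 45.3%, 60.1% and 148% of the remote means in day order. For Mgl2 the limma difference was -1.50 ± 0.18 on day 3 (adjusted p = 1.86e-07), -1.57 ± 0.18 on day 7 (adjusted p = 1.03e-07) and -0.93 ± 0.18 on day 14 (adjusted p = 9.17e-05). It was -0.68 ± 0.18 on day 21 (adjusted p = 0.00196) and 0.49 ± 0.18 on day 42 (adjusted p = 0.0184). The day 42 call was lost without mouse B3 (0.35, adjusted p = 0.128) or mouse B12 (0.47, adjusted p = 0.0587) in limma. Scar levels changed by 0.73 ± 0.25 (adjusted p = 0.0235) from day 7 to day 14 and by 0.94 ± 0.25 (adjusted p = 0.0102) from day 21 to day 42, both by limma.

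Genes listed for dendritic cells were mostly higher in the scar throughout: of 15 listed, 8 were tested, and 7 of these were higher on each of the 5 days, with 1 lower on days 7 and 42. Their summed level was 201.9 to 347.1 RPKM in scar and 77.4 to 183 RPKM in remote libraries on day 3, and 400.6 to 593.6 RPKM against 97.6 to 169.8 RPKM on day 42. On day 42 Ciita and Itgax were below 1 RPKM in all 4 remote libraries, and none of the 8 was so in the scar. The 8 tested were Zbtb46, Itgax, Irf8, H2-Ab1, H2-Aa, H2-Eb1, Cd74 and Ciita. Several of these are used by macrophages as well, so the list does not stand for dendritic cells alone. Over the 40 libraries Zbtb46 correlated with Mgl2 at 0.42, and the others at -0.76 (Itgax) to -0.36 (H2-Eb1). Flt3, Xcr1, Clec9a and other listed genes were not tested. The part of dendritic cells in the Mgl2 values was not tested. Of the 13 C-type lectin genes tested, the family of Mrc1 and Mgl2, 11, 9, 10, 10 and 11 were higher in the scar in day order and 2, 3, 2, 3 and 1 lower.

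Lyve1, a receptor for the matrix sugar hyaluronan, was low in the scar on days 3 and 7 and overlapped the remote values from day 14. Scar libraries of Lyve1 held 3.45, 1.31, 2.17 and 2.86 RPKM on day 3, 1.81, 2.49, 0.867 and 1.64 on day 7, and 3.96, 11.7, 6.20 and 7.42 on day 14. They held 2.73, 4.43, 10 and 8.47 RPKM on day 21 and 14.4, 7.56, 16.3 and 6.29 on day 42. Remote libraries of Lyve1 held 10.4, 9.26, 8.0 and 5.34 RPKM on day 3, 7.36, 11.5, 10.8 and 10.3 on day 7, and 11.3, 19.6, 11.5 and 9.62 on day 14. They held 12.1, 9.36, 15.7 and 16.7 RPKM on day 21 and 13.1, 11, 13.1 and 10 on day 42. The scar was lower in 18 of 20 mice, the groups were apart on days 3 and 7, and they overlapped on days 14, 21 and 42. Scar means were 29.6%, 17.1%, 56.3%, 47.6% and 94.4% of the remote means in day order. For Lyve1 the limma difference was -1.43 ± 0.22 on day 3 (adjusted p = 6.02e-06), -2.04 ± 0.22 on day 7 (adjusted p = 5.07e-08) and -0.78 ± 0.22 on day 14 (adjusted p = 0.00298). It was -1.06 ± 0.22 on day 21 (adjusted p = 0.000188) and -0.16 ± 0.22 on day 42 (adjusted p = 0.5). From day 7 to day 14 the scar level changed by 1.58 ± 0.36 (adjusted p = 0.002) by limma, the widest upward step of any member. The step from day 21 to day 42, 0.74 ± 0.36 (adjusted p = 0.142) by limma, did not pass the threshold, and its scar libraries on day 42 fell into a pair at 14.4 and 16.3 RPKM and a pair at 7.56 and 6.29 RPKM.

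Mmrn1, a gene of lymphatic endothelium and of platelets, was the gene most like Lyve1 among all genes tested. Over the deviations of the 40 libraries from their group means, on the log2(RPKM + 1) scale, the correlation between Lyve1 and Mmrn1 was 0.81, and over the 40 libraries themselves it was 0.42. The libraries share depth, dissection and scaling, so this is a description. In the injured region Mmrn1 stood at 2.65, 1.69, 1.58 and 2.25 RPKM on day 3, 2.87, 3.02, 1.43 and 2.01 on day 7, 7.27, 15.9, 11.1 and 10.3 on day 14, 2.77, 7.36, 8.95 and 7.04 on day 21 and 22.9, 15.6, 24.4 and 6.22 on day 42. The day 42 scar library with the lowest Lyve1, that of mouse B12, also held the least Mmrn1, and those of B1 and B9 held the most of both. Remote means of Mmrn1 were 3.04, 2.47, 3.69, 3.63 and 3.78 RPKM in day order. The deviations of the other 7 listed lymphatic genes correlated with those of Lyve1 at 0.72 (Reln), 0.58 (Flt4), 0.51 (Sema3d), 0.25 (Prox1), 0.17 (Foxc2), 0.13 (Itga9) and 0.029 (Pdpn), so they were not tied to it alike. Over the libraries themselves the values were 0.38 for Reln, 0.71 for Prox1 and 0.24 for Itga9, and -0.35 for Flt4, -0.16 for Sema3d, -0.70 for Foxc2 and -0.67 for Pdpn. Of the 8 listed lymphatic genes tested, 4, 4, 7, 7 and 7 were higher in the scar over the days and 2, 1, 1, 1 and 1 lower. Their summed level was 52.2 to 62.3 RPKM in scar and 37.5 to 43.8 RPKM in remote libraries on day 3, and 71.5 to 108.5 RPKM against 34.8 to 38.4 RPKM on day 42. Prox1, a transcription factor of lymphatic endothelium but not of it alone, was lower in the scar, at -2.23 ± 0.14 on day 3 and -1.90 ± 0.14 on day 7. Remote libraries on day 3 held 11.5 to 13.5 RPKM of Prox1, against 2.12 to 4.48 RPKM of Mmrn1. The part of heart muscle cells in the Prox1 values was not tested. On day 42 Foxc2 and Reln were below 1 RPKM in all 4 remote libraries, and none of the 8 was so in the scar. How far lymphatic vessels contributed to the Lyve1 values was not tested. Of 9 hyaluronan genes tested, 6, 6, 6, 6 and 5 were higher in the scar and 1, 3, 2, 2 and 1 lower.

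**Figure D3:**
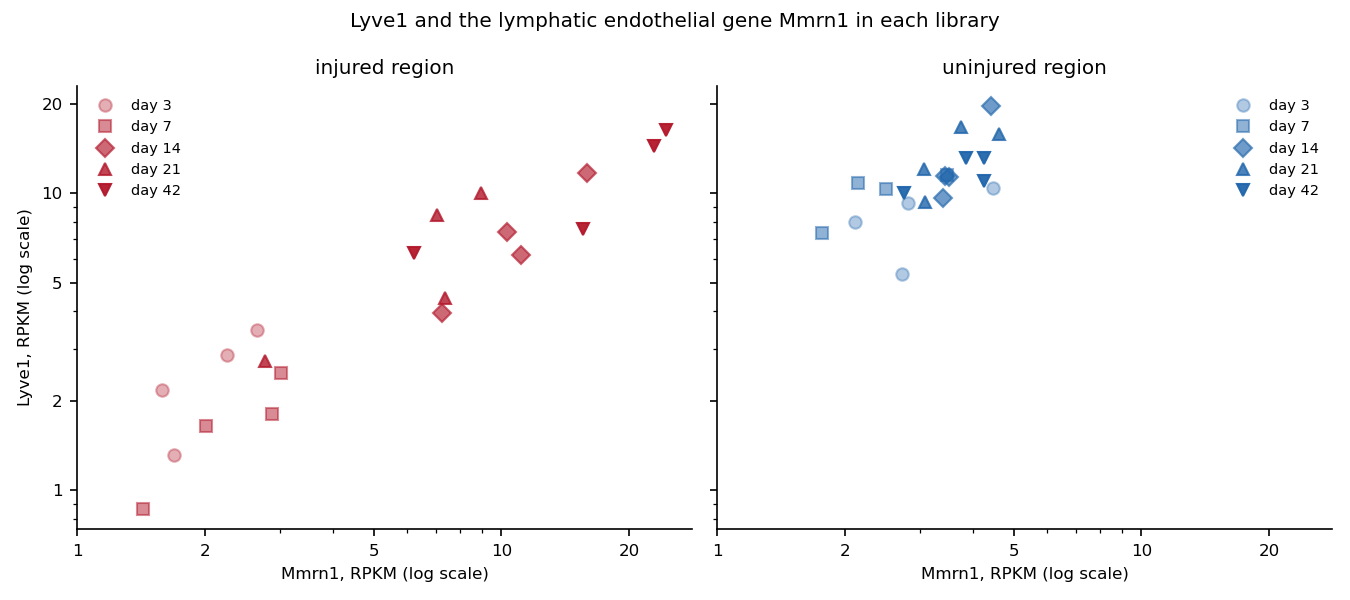
Lyve1 RPKM (vertical axis, log scale) against Mmrn1 RPKM (horizontal axis, log scale), 1 point per library with the day in the marker, injured region in the left and uninjured region in the right panel. The day 42 scar libraries of mice B1 and B9 lie at 22.9 and 24.4 RPKM of Mmrn1 with 14.4 and 16.3 RPKM of Lyve1, that of B12 lies at 6.22 and 6.29 RPKM, and the remote libraries keep to a narrow range of Mmrn1.

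Folr2, folate receptor beta, known from resident-type macrophages of many tissues, had scar levels below the remote ones that were higher on days 3 and 7 than later. Scar libraries of Folr2 held 5.26, 7.13, 6.91 and 5.97 RPKM on day 3, 4.59, 4.24, 7.86 and 4.17 on day 7, and 1.12, 1.94, 1.31 and 1.54 on day 14. They held 1.22, 1.72, 2.61 and 1.39 RPKM on day 21 and 2.07, 2.82, 3.70 and 3.42 on day 42. Remote libraries of Folr2 held 10.5, 10.1, 8.96 and 8.55 RPKM on day 3, 9.02, 10.7, 7.75 and 9.06 on day 7, and 9.11, 10.3, 9.80 and 8.37 on day 14. They held 10.2, 9.21, 10.3 and 9.42 RPKM on day 21 and 7.76, 7.18, 8.83 and 9.21 on day 42. The scar was lower in 19 of 20 mice, and the groups overlapped on day 7 alone, through the scar library of mouse A10. Scar means were 66.2%, 57.1%, 15.7%, 17.7% and 36.4% of the remote means in day order. For Folr2 the limma difference was -0.53 ± 0.14 on day 3 (adjusted p = 0.0016), -0.74 ± 0.14 on day 7 (adjusted p = 6.04e-05) and -2.08 ± 0.14 on day 14 (adjusted p = 1.59e-11). It was -2.0 ± 0.14 on day 21 (adjusted p = 2.61e-11) and -1.22 ± 0.14 on day 42 (adjusted p = 7.97e-08). With reads scaled to their own totals the day 3 difference was 0.17 (limma adjusted p = 0.285) and the day 7 difference -0.17 (0.287). From day 3 to day 7 the scar level of Folr2 differed by -0.27 ± 0.18 (adjusted p = 0.201) in limma, and without day 7 mouse A10 it fell by 0.45 (adjusted p = 0.0209). In the scar Folr2 changed by -1.30 ± 0.18 (adjusted p = 1.82e-05) from day 7 to day 14, -1.44 ± 0.18 (adjusted p = 8.04e-07) from day 3 to day 21 and 0.56 ± 0.18 (adjusted p = 0.0279) from day 21 to day 42, all by limma. Of 8 genes of folate uptake and use tested, 5, 3, 3, 3 and 3 were higher in the scar and 3, 5, 4, 4 and 3 lower.

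F13a1 encodes the A subunit of coagulation factor XIII, the transglutaminase that crosslinks fibrin, and its scar levels had the highest coefficient of variation of the 7 genes. By the ratio of the highest to the lowest scar library it stood at 11.9, below Lyve1 at 18.8 and Mgl2 at 13.6. Scar libraries of F13a1 held 37.0, 33.8, 44.1 and 35.3 RPKM on day 3, 7.87, 9.52, 14.7 and 5.31 on day 7, and 4.28, 5.76, 6.32 and 3.72 on day 14. They held 4.67, 6.47, 9.29 and 8.58 RPKM on day 21 and 14.8, 18.2, 16.7 and 14.7 on day 42. Remote libraries of F13a1 held 34.7, 29.8, 32.1 and 24.1 RPKM on day 3, 30.4, 37.6, 35.5 and 28.3 on day 7, and 33, 31.6, 34.5 and 23.9 on day 14. They held 33.9, 29.2, 35.7 and 35.9 RPKM on day 21 and 31.2, 35.5, 26.8 and 31.7 on day 42. Day 3 was the 1 day on which the groups overlapped and on which every scar library was above its own heart's remote library; on the 4 later days all 16 scar libraries were lower. Scar means were 124%, 28.4%, 16.3%, 21.5% and 51.5% of the remote means in day order. For F13a1 the limma difference was 0.31 ± 0.13 on day 3 (adjusted p = 0.0318), -1.78 ± 0.13 on day 7 (adjusted p = 3.79e-11) and -2.41 ± 0.13 on day 14 (adjusted p = 4.23e-13). It was -2.11 ± 0.13 on day 21 (adjusted p = 3.14e-12) and -0.92 ± 0.13 on day 42 (adjusted p = 1.56e-06). The day 3 call was lost without the mouse as a block (adjusted p = 0.119), with the mouse as a random block (0.0753), without mouse A7 (0.27, adjusted p = 0.113) and without mouse A8 (0.24, adjusted p = 0.151), all by limma. Within the scar, F13a1 changed by -1.97 ± 0.22 (adjusted p = 4.29e-07) from day 3 to day 7, -0.73 ± 0.22 (adjusted p = 0.0117) from day 7 to day 14 and 1.09 ± 0.22 (adjusted p = 0.00161) from day 21 to day 42 by limma.

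Genes listed for platelets were high in the scar on the same day as F13a1. Among them Pf4, a chemokine of platelet granules, is also listed with the further resident-type macrophage genes described below. On day 3 Pf4 averaged 95.1 ± 16.2 RPKM in scar and 17.6 ± 2.63 RPKM in remote libraries (SD, n = 4 each). Ppbp averaged 10.8 and 1.18 RPKM, and Itgb3 9.89 and 0.836 RPKM. All 3 tested of the 11 listed platelet and megakaryocyte genes were higher in the scar on day 3, against 1 of 3 on each later day. Their summed level was 89.2 to 130.1 RPKM in scar and 15.8 to 22.8 RPKM in remote libraries on day 3, and 12 to 20.1 RPKM against 11.6 to 21.2 RPKM on day 42. Most of that sum was Pf4 in both regions, so it does not stand for platelets alone. Over the 40 libraries, deviations of F13a1 from the group means correlated with those of Pf4 at 0.54, of Itgb3 at 0.31 and of Ppbp at 0.088. Those of Pf4 correlated with Mrc1 at 0.58 and with Cbr2 at 0.54, so the value for F13a1 is not set apart from those of other members. On day 42 Ppbp in the scar, and Itgb3 in the remote region, lay below 1 RPKM in all 4 libraries. The part of platelets or monocytes in the F13a1 values was not tested. Of 11 genes of factor XIII and fibrin tested, 7, 5, 6, 6 and 6 were higher in the scar and 4, 4, 4, 4 and 2 lower.

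Cbr2, a carbonyl reductase known best from the mouse lung, was the other member that was lower in the scar in 20 of 20 mice. Scar libraries of Cbr2 held 2.98, 3.99, 2.73 and 3.71 RPKM on day 3, 0.750, 1.31, 3.31 and 1.27 on day 7, and 1.30, 2.36, 1.40 and 1.43 on day 14. They held 1.87, 2.18, 2.99 and 2.67 RPKM on day 21 and 4.10, 4.44, 4.87 and 3.66 on day 42. Remote libraries of Cbr2 held 9.83, 12.5, 11.6 and 8.5 RPKM on day 3, 9.29, 12.2, 11.4 and 8.73 on day 7, and 10.9, 15.3, 12.7 and 9.28 on day 14. They held 10.1, 8.52, 12.7 and 13.3 RPKM on day 21 and 10.1, 10.1, 9.72 and 13 on day 42. The groups did not overlap on any day, with 4.87 RPKM as the highest scar and 8.5 RPKM as the lowest remote library. Scar means were 31.7%, 16%, 13.5%, 21.7% and 39.8% of the remote means in day order. For Cbr2 the limma difference was -1.41 ± 0.14 on day 3 (adjusted p = 5.83e-09), -2.17 ± 0.14 on day 7 (adjusted p = 4.96e-12) and -2.31 ± 0.14 on day 14 (adjusted p = 2.65e-12). It was -1.82 ± 0.14 on day 21 (adjusted p = 1.07e-10) and -1.15 ± 0.14 on day 42 (adjusted p = 1.71e-07). Recovered reads behind the scar values were 16 to 174 per library. In the scar Cbr2 changed by -0.78 ± 0.20 (adjusted p = 0.00216) from day 3 to day 7 and by 0.63 ± 0.20 (adjusted p = 0.0271) from day 21 to day 42 by limma.

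In the scar, the members did not all change in the same steps. F13a1, Cbr2, Cd163 and Mrc1 fell from day 3 to day 7, when 0 members rose and 4 fell and 60.4% of all genes were called (27.7% higher, 32.7% lower). From day 7 to day 14, Lyve1 and Mgl2 rose while F13a1 and Folr2 fell, in a step in which 43.1% of all genes were called (21.9% higher, 21.2% lower). From day 14 to day 21 limma called 0 of the 7 and 0% of all genes tested, and 0 of the 7 had an unadjusted p under 0.05. From day 21 to day 42 the count was 5 higher and 0 lower with 24.8% of all genes called (11.2% higher, 13.6% lower), and the 5 were F13a1, Mgl2, Cbr2, Mrc1 and Folr2. Day 21 against day 3 gave 2 higher and 2 lower, with 66.6% of all genes called (32.5% higher, 34.1% lower). Lyve1 differed by 1.02 ± 0.36 (adjusted p = 0.0197), Mgl2 by 0.75 ± 0.25 (adjusted p = 0.0129) and F13a1 by -2.25 ± 0.22 (adjusted p = 3.68e-08) in limma, and the second lower gene was Folr2. Single libraries decided some of these calls in limma. Without day 7 mouse A10, the step from day 7 to day 14 kept 1 gene higher and 1 lower (F13a1 at -0.50, adjusted p = 0.0542), and without day 14 mouse A5 or A6 Mgl2 was not called (0.57, adjusted p = 0.0885, and 0.63, 0.0726). The step from day 21 to day 42 kept 3 genes higher without day 21 mouse A3 or day 42 mouse B3 or B9, when Cbr2 and Folr2 missed the threshold, and 4 without day 21 mouse A4 or A11 or day 42 mouse B12. Day 21 against day 3 kept 0 genes higher without day 21 mouse A10 and 1 without day 3 mouse A5 or day 21 mouse A11, and without day 7 mouse A10 it gave 4 lower, Mrc1 (-0.28, adjusted p = 0.0292) and Cbr2 (-0.35, 0.0308) being called as well. The limma F test over all 5 days called 7 of 7 members in the scar, where 87.6% of all genes were called. The adjusted p ran from 1.52e-08 for F13a1 to 0.00739 for Cd163 in limma.

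The coefficient of variation over the 20 scar libraries was 82.6% for F13a1, 77.1% for Lyve1, 77.0% for Mgl2, 60.6% for Folr2, 47.5% for Cd163, 45.4% for Cbr2 and 26.3% for Mrc1. Over the 20 remote libraries it was 12.2% for F13a1, 28.8% for Lyve1, 19.6% for Mgl2, 10.7% for Folr2, 21.5% for Cd163, 17.1% for Cbr2 and 11% for Mrc1, lower than in the scar for each gene. In the remote region no step between days was called in limma for any of the 7 (0 of 7 each, against 25% of all genes from day 3 to day 7, 13% from day 7 to day 14, 0.00878% from day 14 to day 21, 20.5% from day 21 to day 42 and 11.5% for day 21 against day 3). At an unadjusted p under 0.05, the counts in those steps were 0, 1, 0, 2 and 2. The F test over the days called 0 of 7 in the remote region, against 47.2% of all genes, with the lowest limma adjusted p at 0.0713 for Cd163. The nearest single comparisons were Lyve1 and Cd163 between day 3 and day 21, at 0.65 ± 0.21 (adjusted p = 0.0545) and 0.42 ± 0.14 (adjusted p = 0.0562) by limma.

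The difference between the regions itself changed over the days for all 7 genes, by a limma F test with the mouse as a block that called 74.3% of all genes tested. The adjusted p was 8.85e-10 for F13a1, 9.79e-07 for Folr2, 4.89e-06 for Mgl2, 5.49e-05 for Mrc1, 0.000102 for Cbr2, 0.000431 for Lyve1 and 0.0109 for Cd163 in limma. The deepest difference fell on day 7 for Cd163, Lyve1 and Mgl2 and on day 14 for Cbr2, F13a1 and Folr2. Mrc1 was smallest on day 7 and largest on day 42.

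Since genes of macrophages in general were higher in the scar, the members were also set against 6 genes that macrophages use widely: Csf1r, the receptor for their growth factor, Adgre1, which encodes F4/80, Fcgr1, Laptm5, Tyrobp and Spi1, which encodes PU.1. Subtracting the mean log2 level of these 6 lowers nearly every gene in the scar, so the count of members called, 7 of 7 lower on each day, has to be read beside 93.7%, 96.4%, 91%, 86.2% and 90.9% of all genes called lower on days 3, 7, 14, 21 and 42 by limma. The subtraction shifts all genes of a library alike, so it leaves the gap between the members and all genes as it was. The members' median became -3.28, -4.05, -3.53, -3.09 and -2.28, against -1.82, -2.22, -1.44, -1.23 and -1.33 over all genes tested. Cd163 stood at -3.54, -4.45, -3.53, -3.33 and -3.03 in day order, and Cbr2 stood at -3.28, -4.44, -3.78, -3.09 and -2.51. Mrc1 was closest to the general macrophage genes, at -1.30, -2.15, -1.24, -0.89 and -0.26, and Mgl2 came near them on day 42, with values of -3.37, -3.83, -2.41, -1.94 and -0.87. F13a1 stood at -1.56, -4.05, -3.88, -3.37 and -2.28, Folr2 at -2.40, -3.00, -3.55, -3.27 and -2.58 and Lyve1 at -3.31, -4.31, -2.26, -2.33 and -1.52. The day 42 value of Mrc1 was close to the threshold in limma (adjusted p = 0.05 when rounded). Of 29 alternatives, 15 lost that call with the sign kept, among them leaving out mouse B1, B3 or B9 (-0.26, -0.19 and -0.28) and Csf1r alone (-0.099). Quantile normalisation lost it as well and turned the sign (0.0074, limma adjusted p = 0.957).

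**Figure D4:**
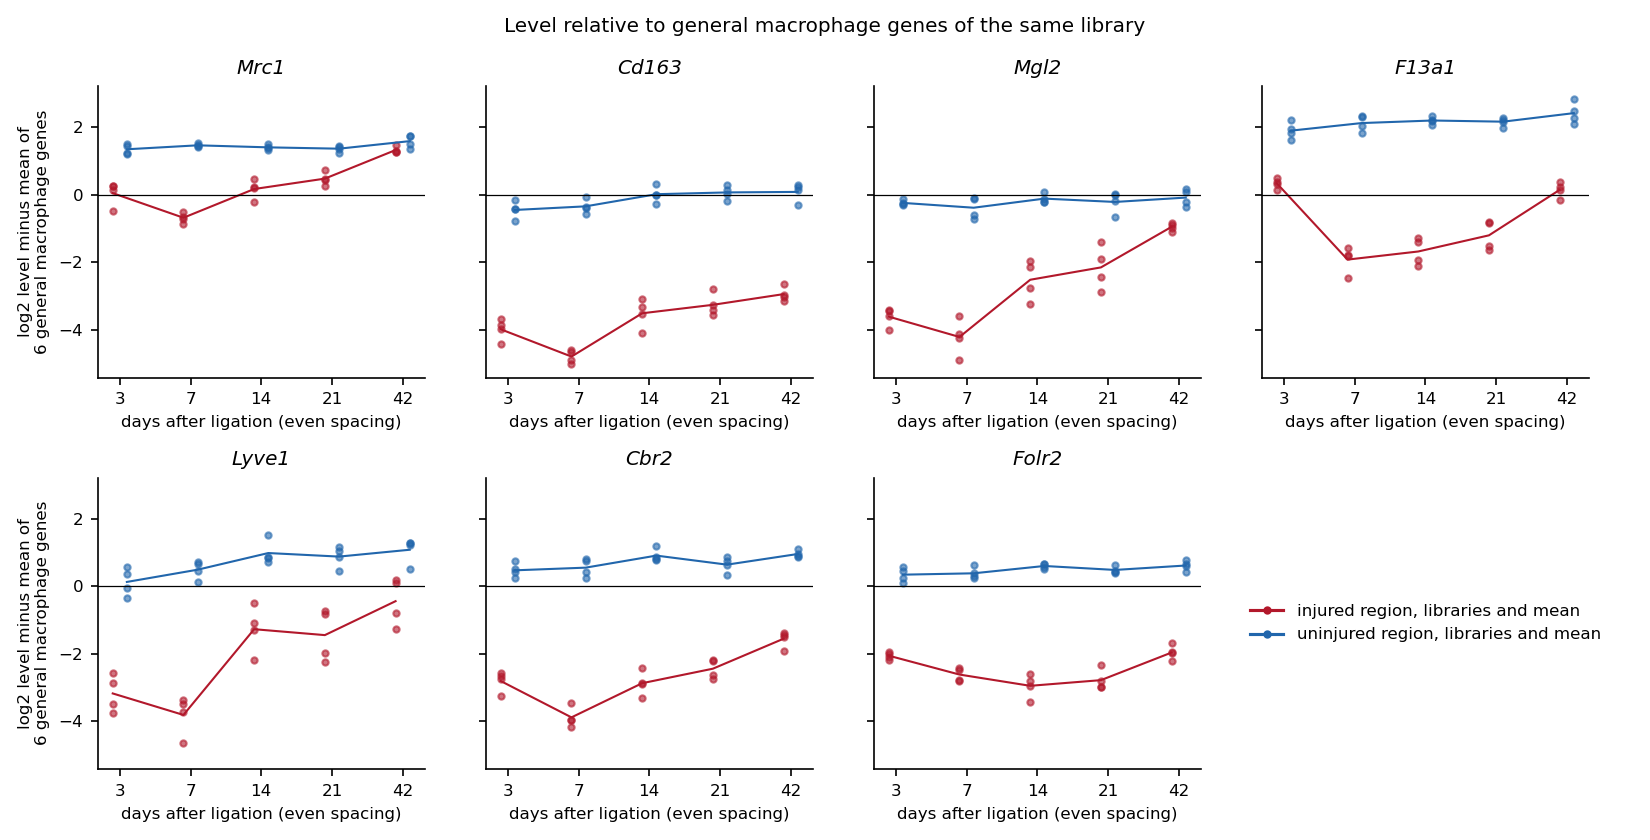
Log2 level of each of the 7 genes minus the mean log2 level of 6 general macrophage genes in the same library (vertical axis) by day after ligation (horizontal axis, evenly spaced), 1 point per library and a line through the group means, injured left of uninjured. The scar line of Mrc1 comes nearest the remote one on day 42, at 1.32 against 1.59, while the lines of Cd163 stay apart, at -2.95 against 0.08 on the same day.

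Within the scar, the members relative to those 6 genes fell from day 3 to day 7 in 5 of 7 cases and rose in 0, with 52.5% of all genes called (7.14% higher, 45.4% lower). From day 7 to day 14, 5 rose and 0 fell, with 95% of all genes called and 94.5% higher, and 19 of the 20 tested genes of macrophages in general fell in that step before any subtraction. The step from day 14 to day 21 called 0 members, with 2 at an unadjusted p under 0.05 and all limma adjusted p at 0.99987. The share of all genes called in that step is not given here, so the 0 does not set the members apart. From day 21 to day 42, 5 rose and 0 fell while 16.9% of all genes were called, 16% as higher. Day 21 against day 3 gave 4 higher and 2 lower, with 83% of all genes called (77.4% higher, 5.52% lower), and with Csf1r alone in place of the 6 genes it gave 0 higher. In the remote region, 1 member relative to the 6 genes was higher on day 21 than day 3 (limma adjusted p = 0.0413). The other steps there called 0 members, and the shares of all genes called are not given here.

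Most other listed macrophage genes were higher in the scar. All 20 tested genes of macrophages in general were higher in the scar on each of the 5 days, with median differences of 1.78, 2.15, 1.43, 1.16 and 1.24, and the summed level was 2450 to 3689 RPKM in scar and 415.0 to 462.0 RPKM in remote libraries on day 7. A further 25 genes known from resident-type macrophages were listed, of which 13 were tested, and 9, 10, 10, 10 and 12 of these were higher in the scar in day order and 4, 1, 2, 1 and 0 lower. Their median difference was 0.87, 1.2, 1.14, 1.04 and 1.25. Among its leading genes on day 7 were Cd5l, a secreted macrophage protein, at 2.12 ± 0.12, Cd302, a C-type lectin, at 1.26 ± 0.079 and Gas6, a ligand of receptors for dying cells, at 1.2 ± 0.087. On day 42 Cd302, Maf, Gas6 and Stab1, a scavenger receptor, led it at 1.72 ± 0.079, 1.48 ± 0.087, 1.46 ± 0.087 and 1.43 ± 0.12. On day 3 the transporter Slco2b1 was one of its 4 lower genes, at -1.21 ± 0.076. The tested list outside the 7 thus held more genes higher than lower in the scar on every day. Timd4, Vsig4, Clec10a and other listed genes were outside the table. In bulk tissue, tested genes such as Gas6 and Igf1 need not come from macrophages alone, and which cells carried them was not tested.

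Genes of recruited monocytes and early macrophages were higher in the scar in 13, 12, 10, 10 and 11 of 13 tested and lower in 0, 1, 1, 1 and 1, with medians of 2.83, 1.92, 1.18, 0.80 and 1.2. Ccr2, the receptor that brings monocytes into tissue, differed by 2.83 ± 0.11 on day 3 and 1.49 ± 0.11 on day 42. Lipid-associated macrophage genes were higher in 11, 11, 10, 8 and 9 of 13 tested and lower in 1, 1, 3, 3 and 3, with medians of 1.59, 1.74, 1.12, 1.05 and 1.09, and the receptor Trem2 was at 3.31 ± 0.12 on day 7. Of 7 genes for macrophage growth factors and their receptors, 7, 5, 6, 6 and 6 were higher and 0, 1, 0, 0 and 0 lower, with Csf1r at 1.87 ± 0.087 on day 7. Among 12 genes of alternative activation, a state marked by interleukin 4 signalling in which Mrc1 and Mgl2 are known markers, 8, 7, 5, 5 and 6 were higher in the scar and 3, 5, 4, 5 and 4 lower. These lists share some genes with one another and with the members.

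**Figure D5:**
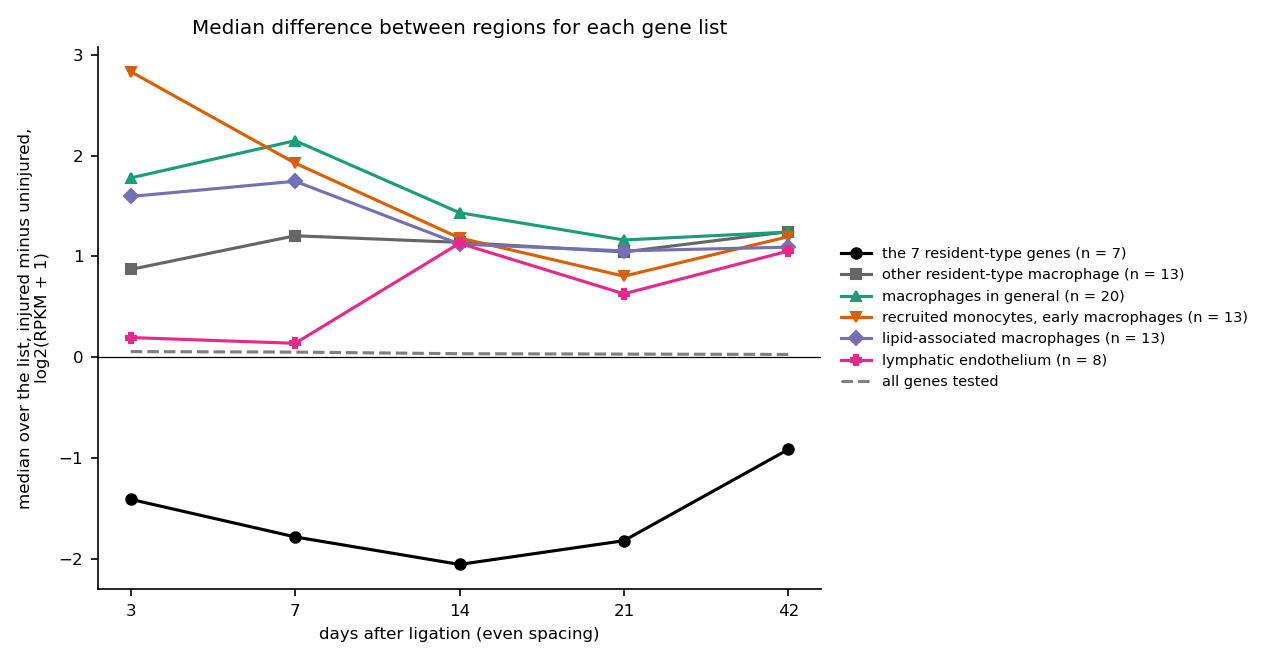
Median log2 difference between injured and uninjured regions (vertical axis) by day (horizontal axis) for the 7 members, for the other gene lists and for all genes tested, 1 line per list. The member line runs from -1.41 on day 3 to -2.06 on day 14 and -0.92 on day 42, below the line of all genes at 0.03 to 0.06, while the lines of macrophages in general (1.16 to 2.15) and of the other resident-type genes (0.87 to 1.25) lie above it.

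The tissue around these cells differed as well. All 12 cardiomyocyte genes were lower in the scar on each day, with medians of -4.36, -4.34, -2.85, -3.03 and -2.52, and their summed level was 1505 to 2375 RPKM in scar and 24119.6 to 30783 RPKM in remote libraries on day 7. Fibroblast genes were higher in 5, 7, 7, 8 and 8 of 8 tested and lower in 2, 1, 0, 0 and 0. Genes of blood vessel endothelium were lower in 2, 8, 8, 8 and 7 of 10 and higher in 4, 1, 1, 2 and 2. Neutrophil genes were higher in 6, 5, 1, 1 and 1 of 6 tested. The part of this make-up in the members' differences was not tested.

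Across the 40 libraries the 21 pairs of members correlated at -0.57 (Mrc1 with Cd163) to 0.95 (Cd163 with Cbr2), with a median of 0.67. Taken as deviations from the 10 group means, the pairs ranged from 0.097 (Mrc1 with Lyve1) to 0.63 (F13a1 with Cbr2), with a median of 0.33. All 6 pairs with Mrc1 were below 0 over the libraries and above 0 by deviations, at -0.11 and 0.56 with F13a1 and at -0.38 and 0.56 with Cbr2. All points of these correlations share library depth and scaling, and they are given as a description.

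By the same deviations, the 3 genes most like each member were Tlr7 (0.64), Tubb2b (0.63) and Zdhhc16 (0.61) for Mrc1, and Spock2 (0.70), Hand2 (0.65) and Vwf (0.64) for Cd163. For Mgl2 they were Stc2 (0.61), Jchain (0.58) and Igkc (0.56). For F13a1 they were P4hb (0.75), Rpl10a (0.70) and Gars (0.70), and for Lyve1 Mmrn1 (0.81), Scn3a (0.74) and Grb10 (0.74). For Cbr2 they were Eif3d (0.76), Rangap1 (0.75) and Cdipt (0.73), and for Folr2 Arg1 (0.73), Emilin2 (0.72) and Ugt1a7c (0.69). These are the highest of all genes tested over 40 libraries, and a search over so many genes finds high values without any relation. No member is among the 3 most like any other.

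Ordered by group mean, the 10 groups of each gene formed a near-continuous ladder in most cases, since the library ranges of 8 of 9 neighbours overlapped for Mrc1, Cd163 and Cbr2, 9 of 9 for Mgl2 and Lyve1, and 7 of 9 for F13a1 and Folr2. For Cd163 and Cbr2 the single gap separated the lowest remote group from the highest scar group: 1.02 ± 0.295 RPKM in the day 42 scar against 5.08 ± 0.613 RPKM in the day 3 remote region for Cd163, and 4.27 ± 0.515 RPKM in the day 42 scar against 10.4 ± 1.68 RPKM in the day 7 remote region for Cbr2 (SD, n = 4 each). For Mrc1 the single gap set the day 42 scar above the day 3 scar at 30.6 ± 3.96 RPKM. F13a1 led its order with the day 3 scar at 37.5 ± 4.53 RPKM and had gaps above and below the day 42 scar at 16.1 ± 1.69 RPKM. Folr2 had a gap above the day 3 scar at 6.32 ± 0.865 RPKM and another between the day 7 scar at 5.21 ± 1.77 RPKM and the day 42 scar at 3.00 ± 0.722 RPKM. Over the 20 scar libraries the genes stood in the order Mrc1 at 27.3 ± 7.16, F13a1 at 15.1 ± 12.4, Lyve1 at 5.81 ± 4.48, Folr2 at 3.55 ± 2.15, Mgl2 at 3.09 ± 2.38, Cbr2 at 2.67 ± 1.21 and Cd163 at 0.785 ± 0.373 RPKM (SD, n = 20), which are levels per gene length. Over the 20 remote libraries the order was F13a1 at 31.8 ± 3.88, Mrc1 at 18.8 ± 2.07, Lyve1 at 11.3 ± 3.26, Cbr2 at 11 ± 1.88, Folr2 at 9.22 ± 0.982, Cd163 at 5.76 ± 1.24 and Mgl2 at 5.38 ± 1.05 RPKM. On the annotated length of its exons the same reads would give a lower level of F13a1 in both regions.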

How the data were processed

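Total RNA of 40 heart pieces was extracted with a column kit (RNeasy Mini) and made into Illumina TruSeq libraries, per the labels' protocols. The authors deposited 1 table of RPKM for 11450 genes, and 0 of its value columns were left without a sample. The submitters' processing notes name the aligner STAR, the package edgeR and the mm10 build, with no version of either tool. How reads were counted, and on which annotation release, is not given in the sources used here. How the library size behind the RPKM was set is not given there either.

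RPKM are not counts, so the main tests were run on log2(RPKM + 1) with limma 3.58.1 (R 4.3.3, statmod 1.5.0) over the 11390 genes at 1 RPKM or more in at least 4 libraries. The prior variance followed mean expression and was fitted robustly. Regions were compared in 1 model of 40 libraries with the mouse as a block, and days in separate models of the 20 scar and the 20 remote libraries. Each model had 15 residual degrees of freedom. Genes were called at a Benjamini-Hochberg adjusted p, taken over the whole table, under 0.05. The mouse pairs the libraries because both regions came from the same heart, per the series' design text, and the deviations of partner libraries correlated at 0.148 to 0.54 in 20 mice. Each mouse gave 1 library per region, so p values between days measure the spread between mice. With the mouse as a block, p values between regions measure the spread of the differences within mice. Both spreads were pooled over the 5 days. Dividing each RPKM by a step fitted per gene and per library gave whole reads: all 11450 genes came out within 0.01 of a whole number. These reads served for depth and for 1 alternative scaling. Gene lengths behind the RPKM equalled merged GENCODE M21 exons within 0.1% for 76.9% of 11169 annotated genes. The scripts were tested on simulated data. No 2 libraries held identical values.

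The 7 genes and all lists were chosen with earlier results of these data known. Named genes were the 7 members, at most 4 genes of any other list by the largest limma statistic in the comparison described, and the 3 genes with the highest correlation to each member. A few markers of lymphatic vessels, platelets and macrophage receptors outside that rule were named after their values were seen. Correlations used log2(RPKM + 1) in 40 libraries. Alternatives were quantile normalisation, reads scaled to their totals, other pseudocount, filter, block and covariate settings, and leaving out each mouse. The covariate was detection of Xist, which was the same in both libraries of each mouse. Mice with and without Xist were mixed unevenly over the days. On day 3 it was detected in mouse A4 alone, and on day 14 in every mouse but A6. Steps between days are therefore not all balanced for it. Python 3.11.15 with numpy 2.4.6, pandas 2.3.3 and matplotlib 3.10.9 did the rest. Timd4, Vsig4, Clec10a and other listed genes outside the table were not analysed here. The value of 1 listed gene is not reported here.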

Additional observations from a re-analysis of the deposited data

Results flagged for a closer look

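In 4 of the 70 sets of 4 libraries (7 genes in 10 groups), 1 library stood apart from the others by the Dixon gap test, and chance alone sets 1 library apart in about 1 in 20 sets. Folr2 on day 7 was at 7.86 RPKM in the scar of mouse A10. Cbr2 on day 14 was at 2.36 RPKM in the scar of mouse A5. Mrc1 on day 3 was at 17.5 RPKM in the remote region of mouse A8, below its group, and Cbr2 on day 42 was at 13 RPKM in the remote region of mouse B12.

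The difference between the regions was not the same on all days for any of the 7 genes, by the limma F test on that difference. The adjusted p was 8.85e-10 for F13a1, 9.79e-07 for Folr2, 4.89e-06 for Mgl2 and 5.49e-05 for Mrc1. It was 0.000102 for Cbr2, 0.000431 for Lyve1 and 0.0109 for Cd163. The same test called 74.3% of all genes tested, so a call by it does not set these genes apart.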

How the results depend on the processing

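Over the alternatives run, 958 values between regions kept direction and side of the threshold, 16 lost a call, 2 gained one and 4 turned sign. Between days in the scar 720 kept both, 17 lost a call, 8 gained one and 11 turned sign. Values that turned sign are counted there alone, also where they lost a call. A planned count model on the recovered reads was run in a draft only. It is not part of these results, since the deposited unit is RPKM and edgeR was not at hand for the rerun. A few member calls differed from limma in that draft. From day 7 to 14, Cbr2 had the opposite sign and Cd163 was called, and 1 gene of the remote region was called for day 21 against day 3. The cause of the changes over the alternatives was not tested. Without the mouse as a block, the members called higher were 1 on day 3 and 0 on day 14 (random replicate block: 1 on day 3), and no other member call between regions changed as deposited. Set against the 6 genes, Mrc1 on day 42 missed the threshold without the block (limma adjusted p = 0.068). On day 7, 1 was higher with quantile normalisation or scaling to read totals. In the remote region, 1 was lower from day 7 to day 14 under either scaling, and 1 was called by the F test after quantile normalisation. Set against the 6 macrophage genes, 1 fell in the scar from day 7 to day 14 with a pseudocount of 0.1, either scaling or Csf1r alone, and 0 were higher on day 21 than day 3 with Csf1r alone. Signs turned between regions for Folr2 on day 3 (0.17, read totals), Lyve1 on day 42 (0.00040, quantile; 0.50, read totals) and Mrc1 on day 42 set against the 6 genes (0.0074, quantile). In the scar they turned for Cd163 on day 21 against day 3 with the pseudocount (-0.0042), quantile normalisation (-0.048) and Xist as a covariate (-0.00074). With Csf1r alone they turned for F13a1 from day 7 to 14 (-0.067) and, on day 21 against day 3, for Mrc1 (-0.36), Cd163 (-0.060) and Cbr2 (-0.42). Leaving out 1 mouse gave 1 to 2 members higher between regions on day 3, 0 to 1 on day 14 and 1 to 2 on day 42, and Mrc1 on day 7 between -0.0074 and 0.22. In the scar it gave 1 to 3 higher and 1 to 2 lower from day 7 to 14, 3 to 5 higher from day 21 to 42, and 0 to 2 higher and 2 to 4 lower for day 21 against day 3. Uncalled scar values ranged from -0.20 to 0.013 for Mrc1 and -0.13 to 0.31 for Cbr2 from day 7 to 14, passing -0.00054, and for Cd163 from -0.041 to 0.21 from day 21 to 42 and -0.14 to 0.11 for day 21 against day 3. In the remote region it gave 0 to 1 lower from day 21 to 42, 0 to 2 higher for day 21 against day 3 and 0 to 2 by the F test, and relative to the 6 genes 0 to 1 lower in the scar from day 7 to 14. The lowest member values rest on 16 recovered reads (Cbr2) and 21 (Cd163), and at that depth small differences were not detectable.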

Other observations

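By deviations of single libraries, some members stood nearest to genes that did not follow them over the libraries themselves. Igkc and Jchain, genes of antibody-secreting cells, were among the 3 genes most like Mgl2 (0.56 and 0.58 over the 40 libraries), while over the libraries themselves these correlations were -0.21 and -0.23. Arg1, an enzyme of early wound macrophages, was the gene most like Folr2 by deviations (0.73) and stood at 0.029 over the libraries themselves. Both are descriptions of 40 libraries that share depth and scaling, and neither was tested further. These genes were picked as the highest of all genes tested, and a search over so many genes finds high values without any relation.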
